A study of Rattus norvegicus with 36 samples.

Results

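Gene expression in the thyroid was compared between the rats that were injected first and the rats that were injected last in a study of 131I, the radioactive isotope of iodine that the thyroid takes up. The comparison uses 24 of the 36 arrays and 6 of the 9 groups, with 4 rats per group. According to the methods, the activities were given in ascending order and the mock-treated controls came last. The first-injected side therefore holds the groups given 9, 88 and 170 kBq 131I (12 rats), and the last-injected side holds the groups given 1300 and 4700 kBq and the 0 kBq controls (12 rats). The other 12 rats, given 260, 340 and 760 kBq, lay between them in the order and were used only to see where they fell.

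All rats were normal adult male Sprague Dawley rats that received saline with or without 131I in a tail vein and were killed 24 h later, during the day and with the lights on. Thyroid RNA of each rat was hybridized to 1 Agilent 1-colour array. The order of injection stands for the time of day at which a rat was killed, but the clock times and the intervals between groups are not given in the sources used here. Rats were kept 4 to a cage. Each group had 1 place in the order and, as far as the methods say, could be 1 cage, so place, cage and injected activity cannot be told apart within a group. The 3 lowest activities lie on the first side and the 2 highest on the last side, and the last side also holds rats that received no 131I.

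Most cells, those of the thyroid included, carry a molecular clock. The activators Bmal1 and Clock (or Npas2, which can replace Clock) bind E-boxes and drive the genes of their own repressors, the Per and Cry proteins, and those of the nuclear receptors Nr1d1 and Nr1d2, which in turn repress Bmal1 through ROR elements. The same activators drive Dbp and Tef, transcription factors that bind D-boxes, where Nfil3 acts as the opposing repressor. In the peripheral organs of nocturnal rodents, transcripts driven by E-boxes rise during the light phase, while Bmal1, Npas2 and Clock fall.

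The stretches directly upstream of the transcription start are shown for 4 clock genes. Dbp and Bmal1 were taken for their changes, and Ciart and Tef, which did not pass in the main comparison, for their motifs. The stretches are from RefSeq on build GRCr8, each with 250 bases, and capitals mark a motif match. Dbp lies on the plus strand at chr1:105312006-105312255, Bmal1 on the plus strand at chr1:176766078-176766327, Ciart on the minus strand at chr2:186112247-186112496 and Tef on the plus strand at chr7:115206577-115206826.
Dbp: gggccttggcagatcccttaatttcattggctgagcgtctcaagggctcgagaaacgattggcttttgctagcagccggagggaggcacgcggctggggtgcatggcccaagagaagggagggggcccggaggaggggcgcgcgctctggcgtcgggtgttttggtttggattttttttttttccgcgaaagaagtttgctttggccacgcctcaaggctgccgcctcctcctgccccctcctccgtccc
Bmal1: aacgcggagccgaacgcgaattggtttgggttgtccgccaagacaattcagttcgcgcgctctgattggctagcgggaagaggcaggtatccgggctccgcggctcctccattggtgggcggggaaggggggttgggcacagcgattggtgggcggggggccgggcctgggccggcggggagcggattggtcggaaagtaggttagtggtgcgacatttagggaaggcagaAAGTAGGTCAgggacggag
Ciart: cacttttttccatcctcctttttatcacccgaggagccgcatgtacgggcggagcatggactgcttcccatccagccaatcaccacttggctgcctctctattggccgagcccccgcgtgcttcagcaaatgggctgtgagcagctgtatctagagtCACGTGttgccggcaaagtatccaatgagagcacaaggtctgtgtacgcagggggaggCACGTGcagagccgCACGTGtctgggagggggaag
Tef: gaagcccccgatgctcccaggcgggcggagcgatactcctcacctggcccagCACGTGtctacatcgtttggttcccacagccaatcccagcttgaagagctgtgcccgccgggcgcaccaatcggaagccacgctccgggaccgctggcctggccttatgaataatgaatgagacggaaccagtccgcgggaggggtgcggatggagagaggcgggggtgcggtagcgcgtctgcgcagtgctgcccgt
The motifs searched on both strands were the E-box CACGTG, the D-box TTANGTAA and the ROR element by its consensus. Over all 33469 windows of this length, 5.59% held the E-box, 2.04% the D-box and 0.67% the ROR element. Bmal1 held a ROR element from base -19 to base -10, counted from the start. Ciart held E-boxes that began at bases -93, -35 and -21, and Tef held 1 that began at base -198. The window of Dbp held none of the 3 motifs, which says nothing of the factors, since only these letters and this window were searched. Of the 16 genes searched, 5 had a match. The remaining matches were an E-box of Bhlhe40 and a D-box of Per2, and Cry1 had no entry. Per3 and Rtp3, which passed in the main comparison, had no match and are not shown.

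Values are log2 intensities minus the 75th percentile of the array, so a difference of 1 is a doubling, and a level of 1 probe is not set against that of another. Within groups, rats differed with a median SD of 0.67 per probe. The scanner software called 62.6% to 90.7% of an array's probes well above background, and the highest share belonged to a middle-group rat, 340 kBq rat 4. No spot was saturated. The arrays lay on 5 slides and were scanned on 2 days. Slide 4 held 3 first-side arrays and 0 last-side arrays, and the other 4 slides held both sides. Arrays also differed in tissue makeup. Tg, the precursor of thyroid hormone, was well above background on all 24 arrays, but the mean of 13 follicular genes split the arrays. It was at most -2.54 on 7 of 12 first-side arrays and at least 1.21 on the other 5. On the last side it was at most -3.37 on 4 of 12 arrays and at least 0.93 on the other 8. Skeletal muscle genes were high on most arrays of both sides, with a median of 6.53 for the fast muscle list on the first side and 6.39 on the last.

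In the comparison of both sides, 8 of 30367 probes passed an adjusted p-value under 0.01 in limma's moderated test with a fold change of at least 1.5. That is 0.0263% of the probes, or 0.0132% in each direction. The 4 probes that were lower in the first-injected groups were the 3 of Dbp and 1 of Per3. The 4 that were higher were both probes of Bmal1 and 1 each of Cry1 and Rtp3. For all 8 probes the 3 first group means lay on one side of the 3 last group means, as was so for 16.2% of all probes. The 8 were selected on the gap between the sides, so their separation is no independent support. At an unadjusted p-value under 0.05, 2417 probes (7.96%) differed, 1727 of them higher and 690 lower in the first groups. The median difference over all probes was 0.00 on the log2 scale.

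**Figure D1:**
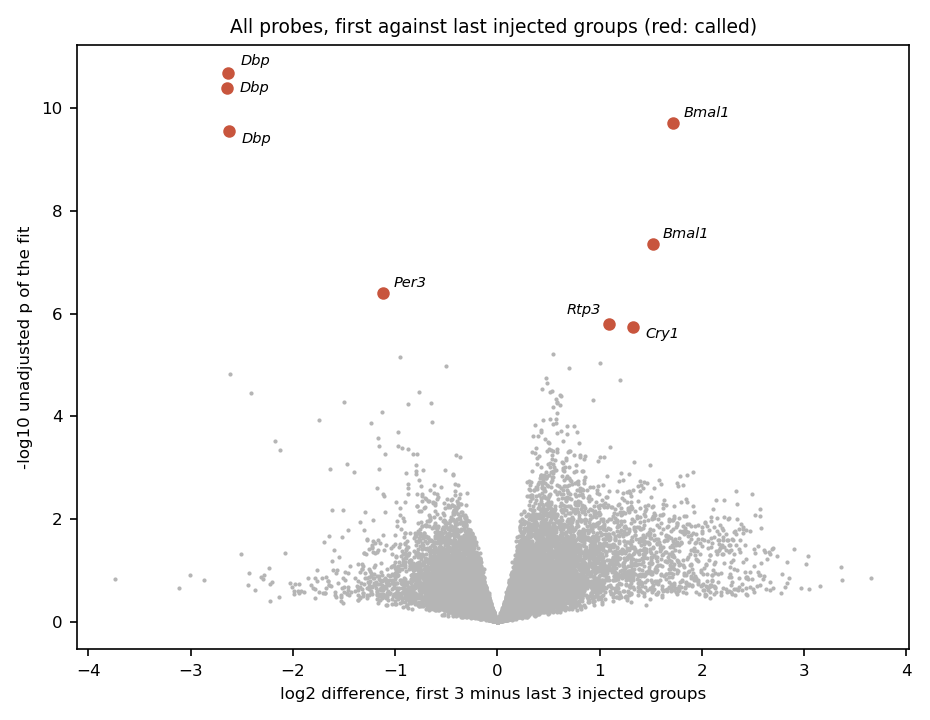
Each point is 1 of the 30367 probes, with the log2 difference between the first and last injected groups on the x axis and minus log10 of limma's unadjusted p-value on the y axis. The 8 called probes are red and named, and the 3 probes of Dbp lie together at the upper left, between -2.64 and -2.63.

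Dbp, the D-box activator, showed the largest change among the 8 probes. By its probe with the highest mean, the 9 kBq rats had log2 levels of 2.84, 2.10, 1.55 and 1.85, the 88 kBq rats 2.63, 1.60, 1.85 and 2.11, and the 170 kBq rats 2.43, 2.19, 2.74 and 1.21. The 1300 kBq rats had 5.46, 4.86, 3.68 and 3.14, the 4700 kBq rats 4.89, 4.43, 6.17 and 4.90, and the mock-treated rats 4.56, 5.06, 5.76 and 3.71. Every one of the 12 last-injected rats lay above every one of the 12 first-injected rats. Over all probes, 6 separated the 24 rats in this way, and 5 of the 6 were among the 8 called. The difference of the means was -2.63 (SE 0.28), a 6.18-fold lower level in the first groups, with an adjusted p of 2.08e-06 in limma. The other 2 probes of Dbp gave -2.63 and -2.64, both with an adjusted p of 6.03e-07. Within the 4 slides that held both sides, the difference for the first probe lay between -3.08 and -2.58, and it was -2.84 and -2.45 on the scan days.

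Bmal1, the partner of Clock, ran the other way. The 9 kBq rats had 0.70, 0.38, 0.21 and 0.54, the 88 kBq rats 0.88, 0.66, 0.08 and 0.03, and the 170 kBq rats 0.20, -0.32, 0.89 and 0.31. The 1300 kBq rats had -0.77, -0.65, -0.90 and -0.43, the 4700 kBq rats -1.34, -2.06, -1.23 and -2.67, and the mock-treated rats -1.54, -0.88, -2.40 and -1.24. All first-injected rats were above all last-injected rats. The difference was 1.72 (SE 0.18), a 3.30-fold higher level, with an adjusted p of 1.95e-06 in limma. The other probe gave 1.52 (SE 0.21, adjusted p = 2.69e-04), also without overlap between the rats. Within slides the first probe differed by 0.88 to 1.98, and on the scan days by 1.47 and 1.94.

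Cry1, a repressor that peaks later than the Per genes, was higher in the first groups. The first-injected rats ranged from -1.01 over a median of -0.17 to 0.31, and the last-injected rats from -2.55 over -1.51 to -0.54. The sides overlapped, with 10 of 12 first-injected rats above all of the last. The difference was 1.33 (SE 0.22, adjusted p = 0.00693 in limma), and within slides it ran from 0.85 to 1.81.

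Per3, a member of the Per family, was lower in the first groups. Its called probe ranged from -5.81 over -5.11 to -4.54 in the first-injected rats and from -4.89 over -3.91 to -3.33 in the last. Here 11 of the 12 last-injected rats lay above all of the first. The difference was -1.12 (SE 0.17, adjusted p = 0.00201 in limma), and -1.34 to -0.81 within slides. The other 2 probes of Per3, one of which has the highest mean of the 3, gave -0.93 and -0.88 and did not pass, with adjusted p-values of 0.187 and 0.0555.

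Rtp3, of a family that helps chemosensory receptors reach the cell surface, was the called gene outside the clock lists. It ranged from -5.71 over -4.74 to -4.30 in the first-injected rats and from -6.57 over -6.003 to -5.26 in the last, with overlap. The difference was 1.09 (SE 0.18, adjusted p = 0.00693 in limma), and 0.74 to 1.43 within slides. Cry1 and Rtp3 each lost the call in 17 of 25 fits that left out 1 rat, while Dbp, Bmal1 and the called probe of Per3 kept it in all 25.

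**Figure D2:**
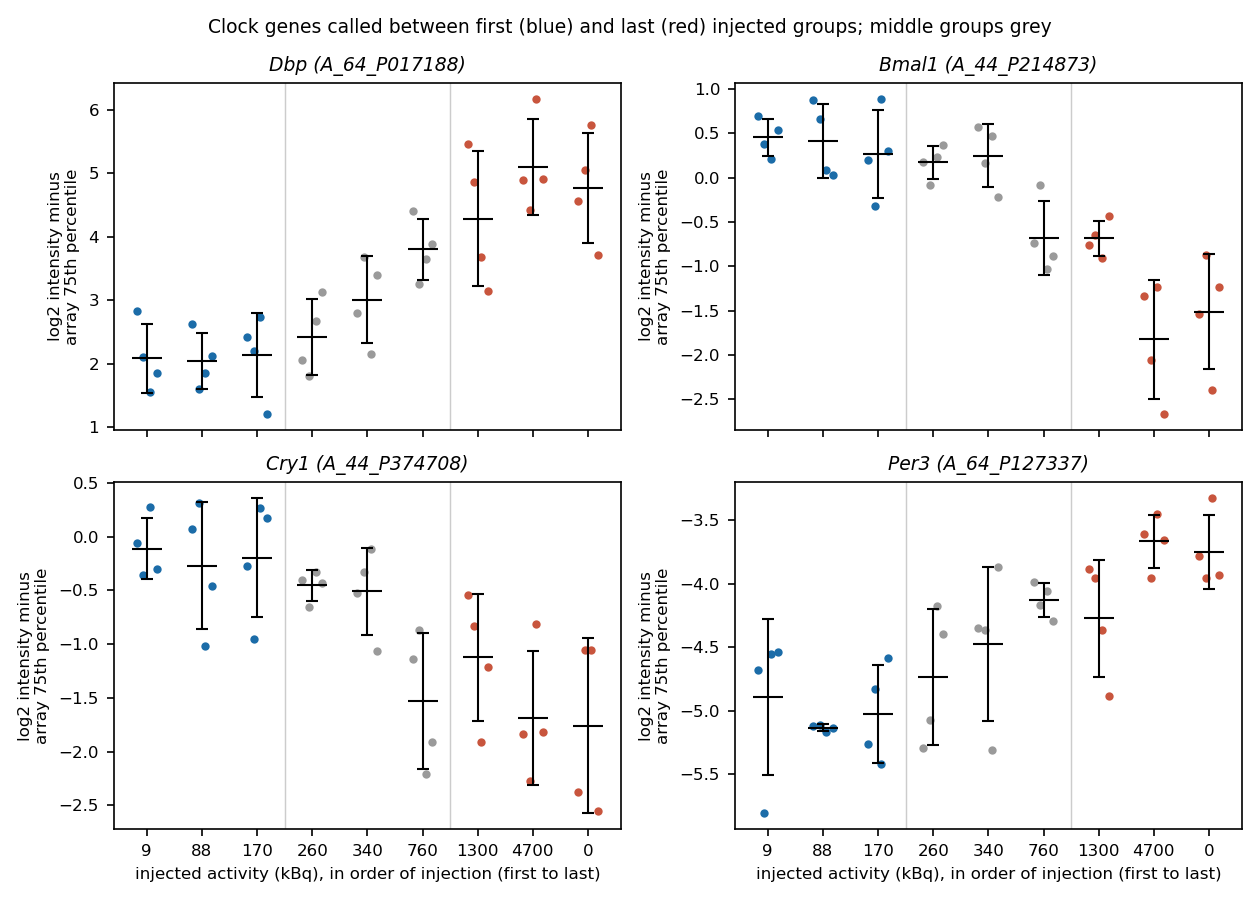
Log2 intensity minus the array's 75th percentile (y axis) of Dbp, Bmal1, Cry1 and Per3 in each of the 36 rats, with the 9 groups from first to last injected on the x axis (4 rats each). Bars show the group mean ± SD. Dbp climbs from means of 2.08, 2.05 and 2.14 to 4.28, 5.10 and 4.77, and Bmal1 goes from 0.46, 0.42 and 0.27 to -0.69, -1.82 and -1.51.

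The rats of a group share a place in the order and a treatment, and p-values over rats measure the spread between rats within such groups. With the 3 first and 3 last group means as the units in limma, 0 probes passed and the smallest adjusted p-value was 0.0811. Of the 30367 probes, 3123 had an unadjusted p-value under 0.05 in this fit. The adjusted p was then 0.104 for each probe of Dbp and 0.376 for the called probes of Bmal1, Cry1, Per3 and Rtp3. An exact two-sided permutation of 3 against 3 group means cannot go below p = 0.1, which every gene with separated group means reaches.

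With the follicular level low on 7 of 12 first-side and 4 of 12 last-side arrays, the counts were also taken with the makeup changed, although no gene of the tissue lists was called between the sides. Without the 18 arrays of low follicular level among the 36, a choice made after seeing the data, 10 probes were called. Among them were the 3 of Dbp (differences of -2.07 to -2.15) and Per3 (-1.25), and these 4 were the called probes with separated group means. The other 6 were Cdkn1a and Gdf15, which are p53 targets, Slc4a1 (-1.81), Svop, Dhrs2l1 (2.27) and 1 probe without a symbol. The 9 kBq group then had 1 array, which is assumed to vary like the other groups. Bmal1 then gave 1.43 and 1.25 with adjusted p-values of 0.0684 and 0.391, and Cry1 1.27 with 0.254. With the levels of 4 tissue lists (follicular cells, fast muscle, squamous epithelium and parathyroid) as covariates in all 36 arrays, 28 probes were called, among them all 8. Further genes of the clock lists among the 28 were Tef (-1.26, adjusted p = 1.02e-04), Klf9 (-0.87, adjusted p = 7.24e-04), Nr1d2, Nr1d1, Ciart (adjusted p = 0.0063) and the other 2 probes of Per3 (-1.03 and -0.97). The rest of the 28, out of 30367 probes, lay outside the clock lists. They were Chml, Npat, Eml4, Polr3g, Dgcr8, Scd2, Pus10, Klf15 and probes without a symbol. In this fit, 7.84% of all probes were higher and 7.19% lower in the first groups at an unadjusted p under 0.05 in limma.

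The clock genes that rise through the light phase were described as a list chosen with earlier results of these data known. Of its 12 genes, 10 had a probe, and Hlf and Bhlhe41 had none. Dbp alone was called by the probe with the highest mean. In the list, 8 genes were lower in the first groups at an unadjusted p under 0.05, against 2.27% of all probes. The same number had separated group means with the first groups lower, against 6.63%. The median difference over the 10 genes was -1.13. The mean level of the list ranged from -3.61 over -2.84 to -2.16 in the first-injected rats and from -2.57 over -1.67 to -0.19 in the last.

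Among the nuclear receptors of this list, Nr1d1 spread widely. The 9 kBq rats had -0.52, -5.85, -4.26 and -1.31, the 88 kBq rats -0.71, -2.78, -4.67 and -2.63, and the 170 kBq rats -2.01, -1.67, -1.22 and -2.74. The 1300 kBq rats had 1.503, 0.00, -0.67 and -1.35, the 4700 kBq rats -0.02, -1.35, 1.31 and -1.06, and the mock-treated rats -0.80, -1.17, 0.16 and -1.39. The 3 first group means (-2.99, -2.70 and -1.91) lay below the 3 last (-0.13, -0.28 and -0.80), but rats overlapped, and the difference of -2.13 (SE 0.54) had an adjusted p of 0.193. It was -3.83 on slide 1 and -0.90 on slide 5. Nr1d2, its paralog, gave -1.24 (SE 0.28, adjusted p = 0.0981). With the tissue covariates both passed, at adjusted p-values of 0.0069 for Nr1d1 and 0.00294 for Nr1d2.

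Ciart, a repressor of Clock and Bmal1, had log2 levels of -9.32 to -5.53 with a median of -8.45 in the first-injected rats and of -9.07 to -3.28 with a median of -5.14 in the last. It was well above background on 1 of 12 first-side arrays and 8 of 12 last-side arrays, so its difference of -2.61 (SE 0.50, adjusted p = 0.0327) rests on dim spots. With each first-side array set to no less than its lowest signal well above background, the last side was at least 3.87-fold higher. Tef, the D-box activator related to Dbp, gave -1.16 (SE 0.28, adjusted p = 0.144). Per2 gave -1.10 (SE 0.28, adjusted p = 0.197), and Bhlhe40, an E-box repressor, -0.90 (SE 0.36, adjusted p = 0.515). All 4 had separated group means.

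Per1 and Cry2 did not separate. Per1 ranged from -5.49 over -5.06 to -4.10 in the first-injected rats and from -5.77 over -4.96 to -3.35 in the last. Both ranges overlapped almost entirely, and the difference was -0.23 (SE 0.25, adjusted p = 0.843). Cry2, the second Cry repressor, gave 0.10 (SE 0.17).

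All 5 listed genes that fall through the light phase had a probe. Bmal1 and Cry1 were called. All 5 were higher in the first groups at an unadjusted p under 0.05, against 5.69% of all probes, and all 5 had separated group means, against 9.62%. The median difference was 1.29. The mean level of the list ran from -1.30 over -0.71 to -0.45 in the first-injected rats and from -2.53 over -1.94 to -1.51 in the last, and the rats of both sides did not overlap.

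Npas2, the paralog of Clock, ranged from -2.45 over -0.81 to 0.39 in the first-injected rats and from -4.05 over -1.82 to 0.00 in the last. The rats overlapped, and the difference of 0.94 (SE 0.35) had an adjusted p of 0.489. A further probe of Npas2 gave -0.04 (SE 0.21), of opposite sign. Clock itself gave 0.81 (SE 0.21, adjusted p = 0.197), and the other Clock probe 0.79 (adjusted p = 0.315). Nfil3, the D-box repressor, gave 1.29 (SE 0.40, adjusted p = 0.358).

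**Figure D3:**
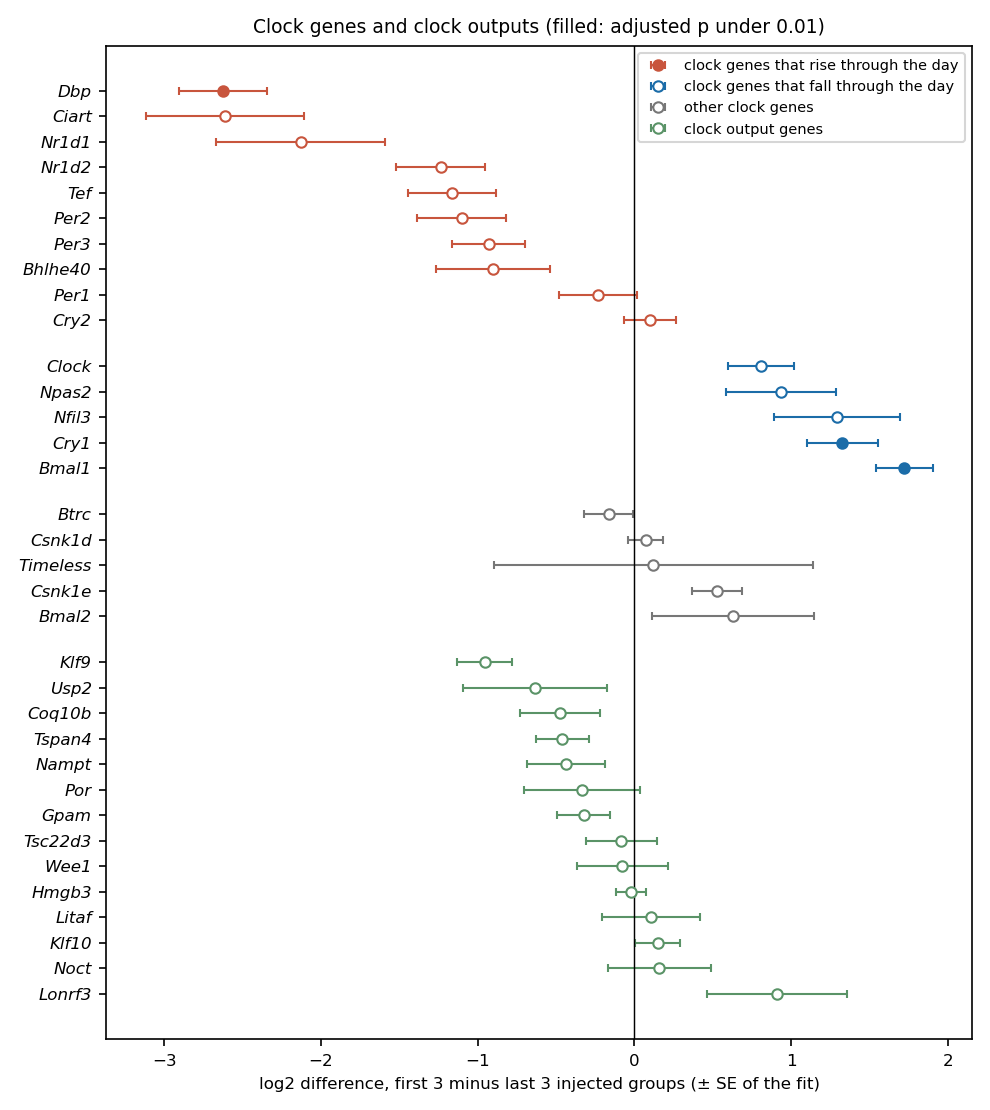
Log2 difference between the first and last injected groups (x axis, bars ± SE of the fit) for 34 genes of the 4 clock lists (y axis), each by its probe with the highest mean. Filled points have an adjusted p under 0.01, and 8 of the 10 genes of the uppermost list lie below -0.9 while the 5 of the next lie above 0.8.

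Of the 8 other clock genes, 5 had a probe and 0 were called. Csnk1e, a kinase that phosphorylates Per proteins, was the one with an unadjusted p under 0.05 (difference 0.53, SE 0.16, adjusted p = 0.326). The remaining differences were between -0.16 for Btrc, a ubiquitin ligase subunit, and 0.63 for Bmal2, with standard errors of up to 1.02 for Timeless. Of 14 genes often rhythmic downstream of the clock, 0 were called and 2 were lower in the first groups at an unadjusted p under 0.05, against 2.27% of all probes. These were Klf9, a transcription factor that also responds to glucocorticoids (-0.96, SE 0.17, adjusted p = 0.0209), and Tspan4, a tetraspanin (-0.46, SE 0.17, adjusted p = 0.474). Klf9 ranged from 0.27 over 1.08 to 1.76 in the first-injected rats and from 1.38 over 1.90 to 2.67 in the last. In the output list, 2 genes had separated means with the first groups higher (Klf10 at 0.15 and Lonrf3 at 0.91), against 9.62% of all probes, and 3 with them lower (Klf9, Tspan4 and Usp2, at -0.63), against 6.63%.

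The middle groups were compared without having been used for the choice of sides. For all 8 called probes the mean of the middle groups lay between those of the first and the last, as was so for 40.2% of all probes. The wide gap for which these 8 were called makes a mean in between likelier, so 40.2% is not a like baseline. The Dbp means of the groups at the 4th to 6th place were 2.42 ± 0.60, 3.01 ± 0.68 and 3.80 ± 0.48 (SD, n = 4). In the lists, the middle mean lay between the sides for 7 of the 10 genes that rise and for all 5 that fall through the light phase. The 3 middle groups of Dbp together lay 37.5% of the way from the first to the last mean, against 27.2% for Bmal1, 48.0% for Cry1, 51.0% for Per3 and 13.2% for Rtp3. For Bmal1 the 260 and 340 kBq means (0.17 and 0.25) were near those of the first groups and the 760 kBq mean (-0.68) near the 1300 kBq mean (-0.69). The steps from 260 to 340 kBq and from 760 to 1300 kBq were smaller than the SDs of those groups, while the step from 340 to 760 kBq exceeded the SDs of 0.35 and 0.42. Against the first groups, the middle groups had 0 called probes in limma (0%, smallest adjusted p = 1), and 758 (2.5%) had an unadjusted p under 0.05. Against the last groups they had 3 (0.00988%), 1 of Bmal1 (1.25) and 2 of Dbp (-1.63 and -1.67). With slide, replicate number or scan day as a block, or with median centring, these 3 calls became 0.

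**Figure D4:**
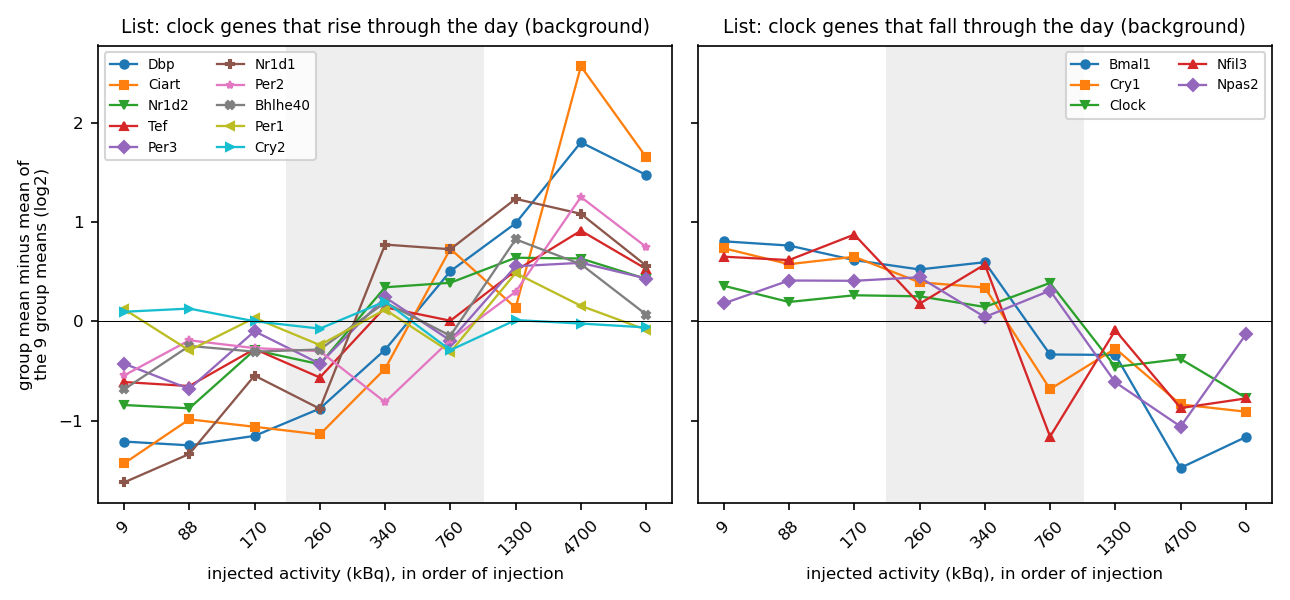
Group means minus the mean of the 9 group means (y axis, log2) for the lists of 10 genes known to rise and 5 known to fall through the light phase, with groups from first to last injected on the x axis and the middle groups shaded. Dbp rises from -1.21 to 1.48 between the first and the mock-treated group, while Per1 and Cry2, on the same list, show no such ordering.

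The last side mixes irradiated and mock-treated rats, so each was set against the first groups. These comparisons share the first groups. Against the mock-treated rats alone, 4 probes were called (0.0132%), Bmal1 at 1.89 and Dbp at -2.68 to -2.69. Against the 1300 and 4700 kBq groups alone, 12 were called (0.0395%), with Bmal1 at 1.64 and 1.4996, Dbp at -2.60 to -2.62 and Rtp3 at 1.16. The other 6 were Mdm2, Svop, Pln, Slc4a1 and 2 probes without a symbol. Mdm2, a p53 target and inhibitor, differed by -1.04 (adjusted p = 0.00117) from these irradiated groups and by 0.13 from the mock-treated rats. Dbp differed by -2.60 and -2.68 in the same comparisons. Svop, a protein of synaptic vesicles, was well above background on 0 of 12 first-side arrays, 0 of 4 mock-treated arrays and 5 of 8 arrays of the irradiated groups. With the same floor as for Ciart, the level of Svop in these irradiated groups was at least 5.63-fold higher than in the first groups. The adjusted p of 0.00222 in limma belongs to the measured difference of -3.53. Over the whole last side, which includes the dim mock-treated arrays, it was at least 2.59-fold higher. The measured difference there was -2.41 (adjusted p = 0.0478 in limma).

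Groups of a side were also compared with each other. Among the first groups, 0 probes differed in limma (0%, smallest adjusted p = 0.9997), and 275 (0.906%) had an unadjusted p under 0.05. Among the last groups, 0 differed (0%, smallest adjusted p = 0.120), and 598 (1.97%) had an unadjusted p under 0.05. Between 4700 kBq and the mock-treated group the smallest adjusted p was 0.0332, shared by 5 probes. These were both of Mdm2 (1.38 and 1.19), Slc4a1 (3.82), Pln (2.26) and Svop, which was well above background on 3 of 4 arrays at 4700 kBq and 0 of 4 in the mock-treated group, a level at least 13.9-fold higher. Dbp differed by 0.33 there and by -0.49 between 1300 kBq and the mock-treated group, and Bmal1 by -0.31 and 0.83. The 1300 and 4700 kBq means lay further apart, at -0.69 and -1.82 for Bmal1 and at 4.28 and 5.10 for Dbp. Between the sides the differences were 1.72 for Bmal1 and -2.63 for Dbp. Both genes were called for that gap, so a smaller spread among the last groups is no independent support.

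At an adjusted p under 0.05 the number of probes was 16 (0.0527%). Beyond the 8 called probes, these included Klf9 and Ciart above, Svop, and 3 genes that were higher in the first groups. Pus10, a pseudouridine synthase, gave 1.01 (SE 0.19), Wsb1, part of a ubiquitin ligase, 0.70 (SE 0.13), and Slc36a4, an amino acid transporter, 1.20 (SE 0.23). The remaining 2 probes had no symbol.

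Lists of other responses were measured beside the clock. Of 15 glucocorticoid-responsive genes with a probe, 0 were called and 2 were lower in the first groups at an unadjusted p under 0.05, against 2.27% of all probes. They were Klf9 and Cebpd (-0.56, SE 0.20). Tsc22d3, a direct glucocorticoid target, gave -0.08 (SE 0.23), and Fkbp5 0.39 (SE 0.39). Of 10 temperature-responsive genes, 0 were called or reached an unadjusted p under 0.05, with Cirbp at -0.36 (SE 0.33) and Rbm3 at 0.01 (SE 0.24), both cold-induced RNA-binding proteins. Of 13 immediate early genes, likewise 0 were called or reached it, with Nr4a1 at -0.66 (SE 0.45) and Egr1 at 0.56 (SE 0.37).

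Of 12 p53 targets with a probe, 0 were called and all 12 had lower values in the first groups, with a median of -0.54. At an unadjusted p under 0.05 there were 4, against 2.27% of all probes, and 4 had separated group means, against 6.63%. Mdm2 (-0.65, SE 0.14) had the smallest adjusted p of 0.0555. The last side pools irradiated and mock-treated rats. In the mock-treated rats the list mean was -0.39, -0.57, -0.76 and -0.32, within the first-side range of -1.03 to -0.02. It was -1.10, -1.05, 1.09 and 1.27 in the 1300 kBq rats. The 4700 kBq rats had 1.46, 1.72, -0.86 and 1.29. The low values belong to 1300 kBq rats 1 and 2 and 4700 kBq rat 3, whose follicular list means were -5.25, -3.90 and -3.37. In the other rats of these groups the follicular mean was 1.61 to 2.16. A link between the lists was not tested. Gdf15, a stress-induced cytokine, gave -2.51 (SE 1.21) and Cdkn1a, a cell cycle inhibitor, -0.64 (SE 0.47). Without the arrays of low follicular level both were called, Gdf15 at -3.35 (SE 0.39, adjusted p = 0.00808) and Cdkn1a at -2.26 (SE 0.24, adjusted p = 0.00471), though their group means did not separate, and the list median was -0.83. With the tissue covariates 0 were called and the median was -0.31. In that fit 5 were lower in the first groups at an unadjusted p under 0.05, against 7.19% of all probes. Of 10 cell cycle genes, 0 were called and all 10 had higher values in the first groups, with a median of 1.85. At an unadjusted p under 0.05 there were 8, against 5.69% of all probes, among them the cyclin Ccna2 (2.38, SE 0.89, adjusted p = 0.489), Kif11 (2.16, SE 0.92) and Ccnb2 (2.08, SE 0.87). In 0 of the 10 were the group means separated, against 9.62% of all probes. Without the arrays of low follicular level the median was 1.24 and 5 genes had an unadjusted p under 0.05, against 7.32% of all probes. With the tissue covariates, which leave out lymphoid cells, it was 1.18, with 2 such genes against 7.84%. The list mean was -0.80 to 0.71 in 9 kBq rats 2 to 4, 88 kBq rats 1 and 2 and 170 kBq rat 4. Of these, 9 kBq rat 2 and 88 kBq rat 1 had lymphoid list means of 1.32 and 0.85. The others had squamous list means of 3.45 to 3.92. In the other first-side rats the cell cycle mean was at most -3.51. On the last side, 0 kBq rat 2 had -0.01 (lymphoid 0.52) and rat 3 -3.40 (squamous 1.90). A link to makeup was not tested.

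Tissue lists showed the makeup of the samples in the same units. All 13 follicular genes had lower values in the first groups (median -1.56, smallest adjusted p = 0.727), and the list mean ranged from -5.18 over -2.91 to 2.31 in the first-injected rats and from -5.25 over 1.66 to 2.42 in the last. Slc26a4 was well above background on 0 of the 24 arrays, and Slc5a5, the iodide transporter, on 10 of 12 first-side and 9 of 12 last-side arrays. All 7 squamous epithelium genes had higher values in the first groups (median 2.04). Their list mean ran from -6.47 over -4.25 to 3.92 in the first-injected rats and from -5.86 over -4.68 to 1.90 in the last. In 9 kBq rats 3 and 4, 88 kBq rat 2 and 170 kBq rat 4 it was at least 3.45. It was at most -3.62 in the other first-injected rats. All 7 C cell genes (median -1.47), all 3 parathyroid genes (median -1.89) and all 7 adipose genes (median -0.66) had lower values. Of the 13 tissue and cell type lists, 0 had a called gene. In these lists 1 gene had an unadjusted p under 0.05, against 7.96% of all probes. It was the erythrocyte anion exchanger Slc4a1 (-1.74, SE 0.39, adjusted p = 0.0930). Each of these lists held 3 to 13 genes with a probe, and standard errors reached 2.58 for Pth, so large differences could miss that limit. Many list means ranged widely within each side, so these counts do not show equal makeup. In bulk tissue, fewer cells of a type and less RNA per cell cannot be told apart.

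**Figure D5:**
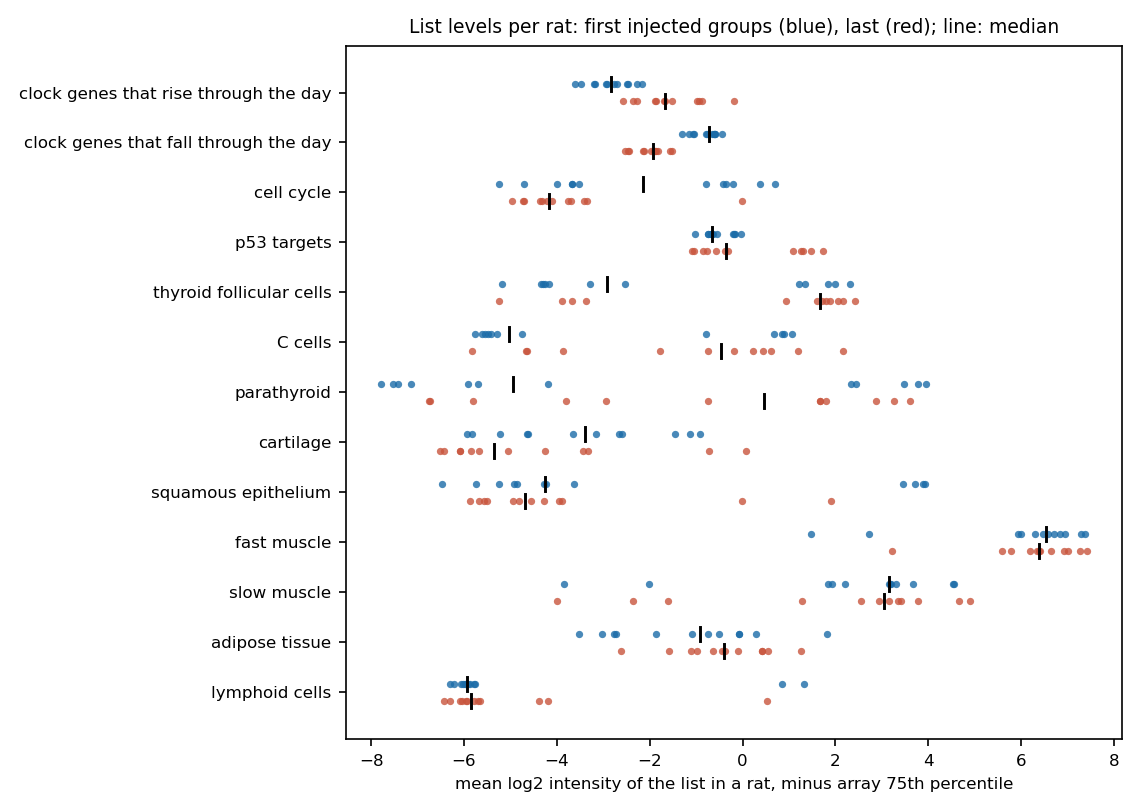
Mean log2 level of each list (y axis) in every first-injected and last-injected rat (points, x axis), with the median of each side as a bar. Rats of both sides overlap for every list shown other than the clock genes that fall through the day, and for the thyroid follicular cells each side has arrays near -4 and near 2.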

How the data were processed

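Thyroid RNA of 36 rats was measured on 1-colour Agilent arrays, 1 per rat. Per the file headers, Agilent Feature Extraction 10.7.3.1 gave spot intensities, and the deposited processed signal is an intensity after background subtraction, not normalized between arrays. The matrix deposited by the authors holds quantile normalized intensities on a linear scale and served as an alternative. Files of the paper with the authors' fold changes were not used.

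Groups came from the sample labels, and the order of injection from the methods. Control spots and outlier spots (331 to 1365 per array) were left out, the array's 75th percentile (1564 to 4288 on the linear scale) was subtracted on the log2 scale, and replicate spots were averaged per probe. No probe was filtered out of the 30367, and 99 lacked a value on at least 1 array and were fitted on the others. Symbols came from RefSeq through the accession on the array, for 17998 probes (15154 genes).

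limma 3.58.1 in R 4.3.3 fitted 1 mean per group to all 36 arrays. The contrast of sides was called at a Benjamini-Hochberg adjusted p under 0.01 with at least a 1.5-fold change, the limits of the study. The methods name no test. Nothing says that rats of a group were independent beyond being separate animals, so p-values measure the spread between animals. The script was tested on simulated data. Python 3.11.15, pandas 2.3.3, numpy 2.4.6, matplotlib 3.10.9 and, for reading files, the R package data.table, version 1.17.8, were also used.

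Genes named are all those of the 4 clock lists, of which 2 are not reported here and were left out of the lists, 2 to 4 members of other lists, and the called genes with a symbol, filled with the smallest adjusted p-values to 5 genes per direction. Other names were chosen after their values were seen. A gene with several probes is given by the one with the highest mean. The members and lists were chosen with earlier results of these data known. The number of arrays limits the precision. Alternatives were other normalizations (normexp with an offset of 50), filters, blocks, units, weights, covariates, limits, and each rat or group left out.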

Additional observations from a re-analysis of the deposited data

Results flagged for a closer look

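In 16 of 252 groups of 4 rats, counted over the named probes and 6 groups, 1 rat lay far from the other 3 by Dixon's criterion, which chance meets in about 1 of 20 groups. In the 4700 kBq group, rat 3 stood apart for 4 genes, with log2 levels of 2.67 for Klf9, -4.05 for Npas2, -5.97 for Lonrf3 and -8.23 for Svop. In the 170 kBq group, rat 3 had 0.37 for Litaf and -2.07 for Per3 (the probe with the highest mean), and rat 4 had -3.90 for Pus10. In the 9 kBq group, rat 1 had -2.82 for Gpam and -5.24 for Pus10, and rat 2 had -5.81 for the called probe of Per3. In the 88 kBq group, rat 2 had -5.53 for Ciart and -4.32 for Pus10, and rat 3 had -2.63 for Nfil3. In the 0 kBq group, rat 3 had 2.26 for Klf9 and rat 1 had -1.97 for Nfil3. Rat 2 of the 1300 kBq group had -5.29 for Rtp3. The follicular list was low in rat 3 of both the 4700 and the 0 kBq group (-3.37 and -3.68), each the rat with the highest Klf9 of its group.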

How the results depend on the processing

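With 8 probes called as reported, the number was 6 to 8 with quantile normalization, median centring, normexp, the authors' matrix, a filter on dim probes, limma's trend and robust options, a fold of 2, and slide, replicate or scan day as a block (scan day chosen after seeing the data). It was 9 for a slope over the 9 places and 11 for the group as a random block, whose estimated correlation was negative (-0.10). It was 0 for group means as units, 5 with the 24 arrays alone, 33 (29 with separated means) with array weights, 28 (27) with tissue covariates and 16 at an adjusted p under 0.05. Without the 170 kBq group or without the 4700 kBq group it was 5. Leaving out 1 rat gave 6 to 9. The 3 probes of Dbp were called in 46 of 47 settings, with group means as units as the exception, those of Bmal1 in 45 and 44, Per3 in 41, Cry1 in 16 and Rtp3 in 14. Replicate numbers did not pair the rats (median correlation -0.03 over 144 pairs), and the replicate block gave 6 calls.

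Without the arrays of low follicular level, 10 probes were called, 4 with separated means. The first groups against the mock-treated rats then had 0, the differences among the first groups 5 and among the last groups 9, and the middle groups had 817 against the first and 1297 against the last. The 9 and 340 kBq groups then had 1 array each, assumed to vary like the others, and that of 340 kBq is rat 4, with the highest share of probes well above background. Against the mock-treated rats, the 4 calls became 2 with the slide as a block and 8 with array weights, and 0 to 6 with a rat left out. Against 1300 and 4700 kBq, the 12 calls became 6 with the slide block, 38 with weights, 20 at an adjusted p under 0.05 and 5 to 14 with a rat left out. Among the last groups there were 10 with weights and 0 to 1 with a rat left out. Middle against last, the 3 calls became 0 with median centring, slide, replicate or scan day blocks, 215 with weights, 5 at an adjusted p under 0.05 and 0 to 4 with a rat left out.

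Single genes that were not called changed sign. Cry2 went to -0.0154 with quantile normalization and -0.0159 in the authors' matrix, Csnk1d to -0.0136 with median centring and -0.0139 with array weights, and Timeless to -0.053 with normexp, -0.22 with the slope, -0.40 with weights, -0.37 without 88 kBq and -0.47 without 1300 kBq. With the slide block, Wee1 was 0.0273, Hmgb3 0.0109 and Noct -0.0421, and Hmgb3 was 0.0287 with the scan day. Litaf was -0.0216 with the slope, -0.0074 without 88 kBq and -0.0239 without 1300 kBq. Tsc22d3 was 0.16 and Klf10 -0.0426 with weights, and Tsc22d3 0.0106 and 0.0372 without 88 or 1300 kBq. With tissue covariates, Wee1 was 0.16, Noct -0.11 and Bmal2 -0.0294. Wee1 was 0.0314 without 4700 kBq and 0.14 without 0 kBq, and Hmgb3 0.0492 without 0 kBq. Without the arrays of low follicular level, Wee1 was 0.0908, Hmgb3 0.16, Noct -0.10 and Per1 0.13. With 1 rat left out, Litaf ran from -0.0013 to 0.28, Timeless from -0.35 to 0.50, Tsc22d3 from -0.18 to 0.0467 and Wee1 from -0.24 to 0.0154. The cause was not tested for any of these.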
